A study of Mus musculus with 2 samples.

Results

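Genes of fatty acid beta-oxidation were followed in interscapular brown fat, a thermogenic depot, of male wild type C57BL/6N mice of 20 weeks. The set was chosen by name and held 34 genes of the mitochondrial and peroxisomal pathways, out of 15523 genes with at least 1 read. It comprised 17 genes of mitochondrial enzymes, 11 of peroxisomal proteins and 6 whose products are found in both organelles or whose location is not settled. Native poly(A)+ RNA was read molecule by molecule on a nanopore. There was 1 cold library, a pool of 3 singly housed mice after 24 h at 4 °C, and 1 ctrl library, for which the labels give no pool size. General housing was at 22 to 24 °C. The treatment label gave the groups; the protocol text of the ctrl sample also describes the cold exposure, and the extraction text names another fat depot, so the labels are not free of contradictions.

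Beta-oxidation shortens an acyl-CoA chain by an acetyl-CoA unit per turn through a first dehydrogenation, a hydration, a second dehydrogenation and a thiolytic cleavage. In mitochondria the first step is carried out by acyl-CoA dehydrogenases that differ in the chain length they accept, and their electrons pass through the electron transfer flavoprotein to the respiratory chain. Peroxisomes start with acyl-CoA oxidases, which make hydrogen peroxide, and shorten very long, branched and dicarboxylic chains. In brown fat, fatty acids freed from lipid droplets are a main fuel of heat production by uncoupled mitochondria.

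The cold library held 1215617 reads and the ctrl library 1698124. All 34 genes were read in both libraries, with 48 to 5718 reads per gene over both, so each passed the minimum of 20. Neither group had a replicate, so no spread could be estimated and no test between conditions was made. Each ratio below is cold over ctrl, from reads scaled by the trimmed mean of M-values (TMM), and is followed by a 95% interval that covers counting error alone. Such intervals compare these 2 libraries, not the conditions. All 10 brown adipocyte markers were read, together 1.94% of cold and 1.46% of ctrl reads. Ucp1 had 14526 reads in the cold and 14860 in the ctrl library, a ratio of 1.21 (1.18 to 1.23). Intervals lay above 1 for 6 of the 10, up to Ppargc1a at 6.03, and below 1 for 1, Cox8b at 0.720 (0.685 to 0.757). All 12 skeletal muscle markers were higher in the cold library, together 0.174% of its reads against 0.0328% in ctrl, at ratios of 3.13 to 6.49. Muscle also makes beta-oxidation enzymes, and the part of muscle RNA in the ratios below was not tested. The 5 white adipocyte markers summed to 406 unscaled reads in the cold and 194 in the ctrl library, the 4 pan adipocyte markers to 22746 and 23478. Both lists were mixed after scaling. Lep was 5.84-fold lower (2.28 to 19.1), while the intervals of Retn, Nnat and Npr3 lay above 1. Those of Adipoq and Lipe lay below 1, those of Fabp4 and Plin1 above it. The 5 endothelial markers summed to 458 and 422 unscaled reads, and the 5 macrophage markers to 64 and 55. Of 5 liver markers, Alb, Apoa1, Ttr and Serpina1a were not listed in either library, and Cyp2e1 had 44 reads in the cold and 16 in the ctrl library. In bulk tissue a change in RNA per cell cannot be told apart from a change in the number of cells of a type.

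The 34 genes together took 1.83% (1.80 to 1.85) of reads in the cold library and 1.65% (1.63 to 1.67) in ctrl, which is a ratio of 1.11 with total counts. With TMM the summed ratio was 0.976 (0.959 to 0.993) and with DESeq2 size factors 0.958, so the direction of the whole set depends on the scaling. Their median log2 ratio was 0.04, beside -0.00247 for all 7515 genes with at least 20 reads. Ratios at least 1.5-fold from 1 with an interval that excluded 1 were found for 2 genes on the higher side, Ehhadh and Pecr, and 3 on the lower, Abcd2, Acsf2 and Acaa1a. That is 5.88% and 8.82% of the set, against 8.05% and 7.43% of all genes. At least 2-fold apart were Pecr on the higher and Abcd2 on the lower side, where 4.18% and 4.07% of all genes were found. Among the 27 members with at least 100 reads, the interval lay above 1 for 22.2% and below 1 for 33.3%, against 19.2% and 20.1% of all 2672 genes with that many reads. Intervals narrow with more reads, and the members were not matched to these genes in depth, so the shares are not strictly comparable. The balance of higher and lower intervals turns with the scaling: of all 34 members, 7 intervals lay above and 10 below 1 with TMM, 6 and 13 with DESeq2 size factors, 14 and 6 with total counts, and 14 and 8 without mitochondrially encoded genes. With TMM, intervals above and below 1 were found for 11.3% each of the 7515 genes, and no such share is given for the other scalings. With total counts in place of TMM, the median of all genes moved to a log2 ratio of 0.17, or to 0.13 when mitochondrially encoded genes were left out of the totals. The higher share of genes at least 1.5-fold apart was 52.0% with TMM, 75.8% with total counts and 69.1% without mitochondrially encoded genes. Intervals stayed above 1 under TMM, both total-count scalings and DESeq2 size factors for 6 members, Acadl, Acad11, Ehhadh, Pecr, Scp2 and Abcd3. They stayed below 1 for another 6, Acadm, Echs1, Acaa1a, Acaa2, Eci1 and Abcd2. They spanned 1 throughout for 7. For the other 15 the call depended on the scaling, although no interval passed from above 1 to below it. For these counts over all scalings no share of all genes is given, so they describe single members and not the set.

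**Figure D1:**
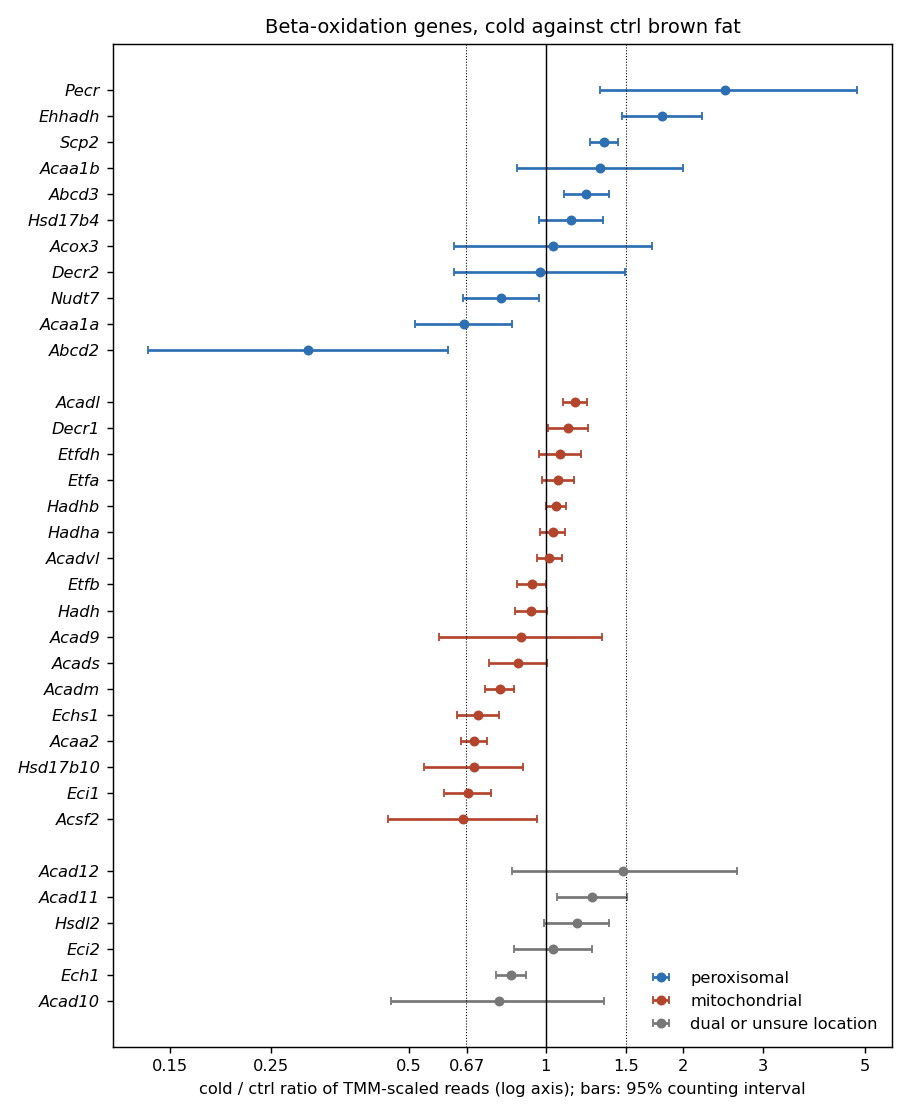
Ratio of cold to ctrl reads after TMM scaling for each of the 34 genes, on a log axis, with bars for 95% counting intervals and dotted lines at 1.5-fold in each direction. Peroxisomal genes spread from Abcd2 at 0.301 to Pecr at 2.47, while mitochondrial genes lie between 0.660 and 1.16.

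The summed reads of peroxisomal genes were higher relative to those of mitochondrial genes in the cold library. The 11 peroxisomal genes summed to 3114 reads in the cold and 3161 in the ctrl library, a ratio of 1.21 (1.16 to 1.28). The 17 mitochondrial genes summed to 17164 and 22383 reads in the cold and ctrl library, a ratio of 0.946 (0.927 to 0.965). With total counts the mitochondrial sum was on the other side of 1, at 1.07, and without mitochondrially encoded genes at 1.04, so its direction depends on the scaling. The ratio between both, 1.28 (1.22 to 1.36), does not depend on the scaling. By medians, peroxisomal genes stood at a log2 ratio of 0.18 and mitochondrial ones at -0.11. The difference of the medians, 0.29, was within the counting error typical of single members, whose combined span of -0.097 to 0.68 includes 0. The peroxisomal sum rests largely on Scp2, and without it the summed ratio was 1.11 (1.04 to 1.19), or 1.18 (1.10 to 1.26) relative to the mitochondrial sum. With TMM, 4 peroxisomal intervals lay above 1, 3 below and 4 spanned it, beside 11.3% on each side over all 7515 genes. With total counts the Nudt7 interval spanned 1 and that of Hsd17b4 lay above it. The peroxisomal genes did not share a direction. Under every scaling tried Ehhadh, Pecr, Scp2 and Abcd3 lay above 1, and Acaa1a and Abcd2 below it.

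Ehhadh encodes the peroxisomal bifunctional protein, which hydrates the enoyl-CoA and oxidises the hydroxyacyl-CoA, and acts on straight and dicarboxylic chains. It had 243 reads in the cold and 167 in the ctrl library, a ratio of 1.79 (1.47 to 2.20). The other bifunctional protein, Hsd17b4, which handles branched and very long chains, had 289 and 314 reads and a ratio of 1.13 (0.964 to 1.34). Of both enzymes, the interval excluded 1 for Ehhadh and not for Hsd17b4, whose interval lay above 1 with total counts; the difference between them was not tested. Ehhadh lies on the minus strand of chromosome 16, from 21761287 to 21787807 on GRCm38. Its promoter is shown because it had the highest ratio among members with at least 100 reads. The window, chr16:21787785-21788084 on the minus strand of GRCm38.p6 from RefSeq, runs from 250 bases before to 50 bases after the start, with the GC box GGGCGG or its reverse complement in capitals.
Ehhadh: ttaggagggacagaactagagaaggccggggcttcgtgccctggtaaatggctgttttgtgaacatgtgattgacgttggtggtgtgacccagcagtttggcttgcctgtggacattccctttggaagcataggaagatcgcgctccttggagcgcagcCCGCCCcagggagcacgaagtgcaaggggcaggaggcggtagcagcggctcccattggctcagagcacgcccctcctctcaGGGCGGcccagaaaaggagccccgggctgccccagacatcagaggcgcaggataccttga
A GC box, the binding motif of Sp1-type factors, was present on either strand in 22 of the 29 members that have a promoter in the RefSeq table, or 75.9%. It was found in 35.7% of all 32851 promoters and in 65.5% of the 7613 promoters of genes with at least 20 reads here. Members were counted by gene and the others by promoter, so the shares are in unlike units. The table held no entry for Abcd2, Acaa2, Acad9, Decr1 and Hsd17b4.

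The peroxisomal thiolases, which release acetyl-CoA, differed among themselves. Scp2, whose gene makes both the thiolase SCPx and the lipid carrier sterol carrier protein 2, had 1535 reads in the cold and 1411 in the ctrl library, a ratio of 1.34 (1.25 to 1.44). Most of them, 96.5% in the cold and 97.2% in the ctrl library, were listed under the transcript Scp2-201 of 2640 bases. Reads that stop short of the 5' end cannot show which of both products they encode. The pseudogene Scp2-ps2 shares 45.4% of the 31-base words of that transcript and had 52 reads in each library. Acaa1a, a peroxisomal thiolase for straight chains, had 105 reads in the cold and 196 in the ctrl library and was 1.51-fold lower (1.19 to 1.94). It no longer reached 1.5-fold with total counts, at a ratio of 0.748, or with coding transcripts alone, at a log2 ratio of -0.44. Its close copy Acaa1b had 50 and 47 reads and a ratio of 1.31 (0.863 to 2.00), so its direction was not detectable at this depth. Acaa1a took 67.7% (59.8 to 75.0) of the reads of both copies in the cold library and 80.7% (75.1 to 85.4) in ctrl. Acaa1a shares 43.8% of its 31-base words with Acaa1b, so the split of reads between them is uncertain.

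Transporters at the peroxisomal membrane stood at both ends. Abcd3, the half-transporter PMP70, which takes up long, branched and dicarboxylic acyl-CoAs, had 596 reads in the cold and 599 in the ctrl library, a ratio of 1.23 (1.09 to 1.38). Abcd2, a half-transporter for very long and polyunsaturated chains, had 10 reads in the cold and 41 in the ctrl library and was 3.32-fold lower (1.64 to 7.44). It was the lowest ratio of the 34 genes, on few reads; the gene lies on the minus strand of chromosome 15 from 91145871 to 91191799 on GRCm38. Acox3, an oxidase of the first peroxisomal step that acts on branched chains, had 32 and 38 reads and a ratio of 1.04 (0.628 to 1.71).

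Among accessory peroxisomal enzymes, Pecr, a reductase of trans-2-enoyl-CoA, had 32 reads in the cold and 16 in the ctrl library, a ratio of 2.47 (1.31 to 4.81). The ratio is the highest of the set, and its interval is wide. Pecr lies on the minus strand of chromosome 1 from 72259167 to 72284314. Decr2, the peroxisomal dienoyl-CoA reductase needed for unsaturated chains, had 41 and 52 reads and a ratio of 0.972 (0.630 to 1.49). Nudt7, a hydrolase that cleaves coenzyme A and its esters, had 181 reads in the cold and 280 in the ctrl library and was 1.25-fold lower (1.04 to 1.52). With total counts the Nudt7 interval spanned 1. The 6 genes of dual or unsure location summed to 1920 reads in the cold and 2505 in the ctrl library, a ratio of 0.945 (0.890 to 1.00), or 1.07 with total counts. Ech1 alone held 1126 of these cold and 1656 of these ctrl reads. The median log2 ratio of the 6 genes was 0.14, and 4 of their ratios lay above 1, while 4 of the 6 intervals spanned it.

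**Figure D2:**
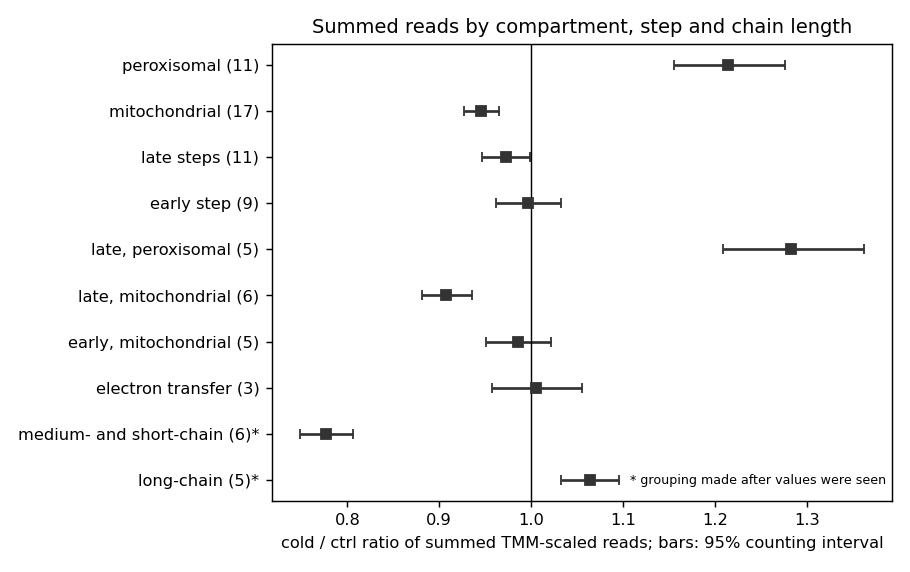
Ratio of cold to ctrl summed reads for groups of genes, with bars for 95% counting intervals and the number of genes in parentheses. The peroxisomal sum lies at 1.21 and its late steps, most of whose reads are of Scp2, at 1.28. The late mitochondrial steps lie at 0.908 (1.03 with total counts). The medium- and short-chain group, formed with the values known, lies at 0.777.

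Early and late steps were compared next, the early step being the first dehydrogenation with 9 genes and the late steps hydration, second dehydrogenation and thiolysis with 11. Early genes summed to 5734 reads in the cold and 7095 in the ctrl library, a ratio of 0.997 (0.962 to 1.03). Late genes summed to 9742 and 12351 reads, a ratio of 0.973 (0.947 to 0.999). With total counts both sums lay above 1, at 1.13 for early and 1.10 for late genes. Relative to each other the late and early sums stood at 0.976 (0.934 to 1.02), which includes 1. The sums of the late genes divided by organelle, with 5 peroxisomal ones at 1.28 (1.21 to 1.36) and 6 mitochondrial ones at 0.908 (0.881 to 0.935). Scp2 alone held 1535 of the 2222 cold and 1411 of the 2135 ctrl reads of the late peroxisomal sum. Of its 5 genes, 2 had an interval above 1, 1 below, and 2 spanned it, beside 11.3% on each side over all 7515 genes. With total counts the late mitochondrial sum moved to 1.03 (0.998 to 1.06). Within mitochondria the late sum relative to the early sum was 0.921 (0.879 to 0.965). Acaa2, at a ratio of 0.696, held 1401 of the 7520 cold and 2482 of the 10216 ctrl reads of the late mitochondrial sum. Hadha and Hadhb, also in that sum, stood at 1.04 and 1.05. The contrast was not computed without Acaa2, so it cannot be read as a trait of the late steps. The medians gave no clear order. Over all members the median log2 ratio was 0.051 for late and 0.026 for early genes, a difference of 0.024 that turned to -0.056 with Acaa1a and Acaa1b merged. Within mitochondria the difference of medians was -0.13, with a span of -0.44 to 0.19 that includes 0.

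Among the acyl-CoA dehydrogenases of the first mitochondrial step, Acadl was higher and Acadm lower in the cold library. Acadvl, for very long chains, had 1740 reads in the cold and 2107 in the ctrl library, a ratio of 1.02 (0.955 to 1.09). With total counts its ratio was 1.15 and the interval lay above 1. Acadl, for long chains, had 2029 and 2162 reads and a ratio of 1.16 (1.09 to 1.23). Acadm, for medium chains, had 1256 reads in the cold and 1957 in the ctrl library and was 1.26-fold lower (1.18 to 1.36). Acads, for short chains, had 318 and 452 reads and was 1.15-fold lower, with an interval of 0.996 to 1.33 that includes 1 and lay on the lower side with DESeq2 size factors. Acadl took 61.8% (60.1 to 63.4) of the reads of Acadl and Acadm in the cold library and 52.5% (51.0 to 54.0) in ctrl, a share that needs no scaling.

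Acadm is shown with its promoter because the gene is a textbook target of nuclear receptors, whose half-site AGGTCA was searched for. The RefSeq window on GRCm38.p6 is chr3:153944594-153944893 on the minus strand, and capitals mark the half-site, which here is read on the other strand as TGACCT.
Acadm: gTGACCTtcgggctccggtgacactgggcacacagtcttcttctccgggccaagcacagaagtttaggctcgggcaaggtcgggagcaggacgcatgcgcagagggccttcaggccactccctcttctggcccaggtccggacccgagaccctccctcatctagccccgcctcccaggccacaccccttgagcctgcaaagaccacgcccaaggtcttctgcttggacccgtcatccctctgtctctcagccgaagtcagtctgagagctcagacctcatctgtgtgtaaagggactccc
The match begins at base 2 of the window, 249 bases before the start. On either strand the half-site was present in 4 of 29 members, Acadm, Acadvl, Echs1 and Scp2, or 13.8%. By promoter and not by gene, it was in 16.3% of all promoters and in 12.5% of those of genes with at least 20 reads. The extended half-site TCAAGGTCA and the repeat of AGGTCA, any 1 base and AGGTCA again, both contain the half-site. They were in none of the windows of the 29 members and in 0.423% and 0.0396% of all promoters. A match or its absence in these windows says nothing about binding of a factor.

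The remaining dehydrogenases were read less often. Acad9, which acts in the assembly of respiratory complex I as well as on long chains, had 43 reads in the cold and 60 in the ctrl library, a ratio of 0.884 (0.583 to 1.33). Acad11, known from human work for long and very long chains, had 261 and 255 reads and a ratio of 1.26 (1.06 to 1.51). Acad10 had 25 and 39 reads at a ratio of 0.790 (0.458 to 1.34), and its neighbour Acad12 on chromosome 5 had 30 and 25 reads at 1.48 (0.841 to 2.62). Acad10 shares 26.0% of its 31-base words with Acad12, and neither difference was detectable at this depth.

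Hadha and Hadhb encode the subunits of the mitochondrial trifunctional protein, an inner membrane complex that carries out the late steps on long chains. Hadhb, the thiolase subunit, was the most abundant of the 34 genes in both libraries, with 2633 reads in the cold and 3085 in ctrl and a ratio of 1.05 (0.999 to 1.11). The copies Gm13910 and Gm9108 share 64.7% and 31.8% of its 31-base words and had at most 2 reads. Hadha, with the hydratase and hydroxyacyl-CoA dehydrogenase activities, had 1805 and 2149 reads and a ratio of 1.04 (0.972 to 1.10). With total counts both intervals lay above 1. The balance of both subunits was alike in the libraries, since Hadha took 40.7% (39.2 to 42.1) of their reads in the cold and 41.1% (39.7 to 42.4) in ctrl. The genes lie head to head on chromosome 5 of GRCm38. Hadha ends its minus-strand extent at 30155162 and Hadhb starts at 30155248, leaving 85 bases between them. The Hadhb window from RefSeq, chr5:30155003-30155302 on the plus strand of GRCm38.p6, is shown because it holds the start of both genes, and capitals mark GC boxes on either strand.
Hadhb: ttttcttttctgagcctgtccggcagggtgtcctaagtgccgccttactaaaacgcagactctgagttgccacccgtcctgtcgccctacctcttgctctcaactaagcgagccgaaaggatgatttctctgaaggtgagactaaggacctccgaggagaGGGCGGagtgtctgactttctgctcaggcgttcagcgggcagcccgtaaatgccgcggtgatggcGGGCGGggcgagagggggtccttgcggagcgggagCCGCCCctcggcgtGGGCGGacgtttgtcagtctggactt
It overlaps the promoter window of Hadha by 228 bases.

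Of the 4 late enzymes that act on medium and short chains in the matrix, Echs1, Acaa2 and Hsd17b10 were lower in the cold library and the interval of Hadh included 1, except with DESeq2 size factors, where it lay below. Echs1, the short-chain enoyl-CoA hydratase, had 537 reads in the cold and 933 in the ctrl library and was 1.41-fold lower (1.27 to 1.57). Hadh, the hydroxyacyl-CoA dehydrogenase for medium and short chains, had 1043 and 1388 reads and was 1.08-fold lower, with an interval of 0.995 to 1.17. Acaa2, the matrix thiolase for medium chains, had 1401 reads in the cold and 2482 in the ctrl library and was 1.44-fold lower (1.35 to 1.53). By reads it ranked sixth of the 34 genes in the cold library and second in ctrl. Hsd17b10, which also acts in isoleucine breakdown and mitochondrial tRNA processing, had 101 and 179 reads and was 1.44-fold lower (1.12 to 1.85). Its interval spanned 1 with total counts. The same held for coding transcripts alone, at a log2 ratio of -0.36 (-0.75 to 0.014), and for the most abundant transcript alone, at -0.48 (-1.01 to 0.039).

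Chain length was taken as a grouping only once the values were known. Acadvl, Acad9, Acadl, Hadha and Hadhb summed to 8250 reads in the cold and 9563 in the ctrl library, a ratio of 1.06 (1.03 to 1.10). Acadm, Acads, Echs1, Hadh, Hsd17b10 and Acaa2 summed to 4656 and 7391 reads, a ratio of 0.777 (0.749 to 0.806). The medium- and short-chain sum relative to the long-chain sum was 0.730 (0.696 to 0.766), whatever the scaling. Under every scaling tried the medium- and short-chain sum stayed below 1, up to 0.880 with total counts, and the long-chain sum above 1, down to 1.04 with DESeq2 size factors. No test was made of this grouping. It was formed with the values known, so the separation and its interval, under any scaling, cannot serve as a test of it. Without the 6 medium- and short-chain genes, the other mitochondrial genes summed to a ratio of 1.03 (1.00 to 1.05). The peroxisomal sum stood at 1.18 (1.12 to 1.25) relative to them. Leaving out genes with low ratios raises the sum of the rest by construction.

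The 3 genes of electron transfer from the dehydrogenases summed to a ratio of 1.01 (0.958 to 1.05), or 1.14 with total counts. Etfa and Etfb encode the subunits of the electron transfer flavoprotein and Etfdh the membrane dehydrogenase that passes its electrons to ubiquinone. Etfa had 1128 reads in the cold and 1310 in the ctrl library, a ratio of 1.06 (0.980 to 1.15). Etfb had 1270 and 1681 reads and a ratio of 0.932 (0.865 to 1.00), and Etfdh had 638 and 733 reads and a ratio of 1.07 (0.964 to 1.20). All 3 intervals include 1, and with total counts those of Etfa and Etfdh lay above it, while with DESeq2 size factors that of Etfb lay below. Etfa took 47.0% (45.0 to 49.1) of the reads of both subunits in the cold library and 43.8% (42.0 to 45.6) in ctrl.

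Enzymes that prepare unsaturated chains did not share a direction. Eci1, the mitochondrial enoyl-CoA isomerase, had 442 reads in the cold and 809 in the ctrl library and was 1.48-fold lower (1.32 to 1.67), just inside the limit of 1.5-fold. Eci2, an isomerase found in both organelles, had 192 and 228 reads and a ratio of 1.04 (0.853 to 1.26). Ech1, a dienoyl-CoA isomerase of both organelles, had 1126 reads in the cold and 1656 in the ctrl library and was 1.19-fold lower (1.11 to 1.29). With total counts its interval spanned 1. Decr1, the mitochondrial dienoyl-CoA reductase, had 734 and 810 reads and a ratio of 1.12 (1.01 to 1.24), an interval that spanned 1 with DESeq2 size factors. Acsf2, a mitochondrial acyl-CoA synthetase that activates medium chains, had 46 and 86 reads and was 1.52-fold lower (1.05 to 2.22), with an interval that spanned 1 with total counts. Hsdl2, a dehydrogenase of the short-chain family, had 286 and 302 reads and a ratio of 1.17 (0.990 to 1.38). With total counts the Hsdl2 ratio was 1.32 and its interval lay above 1.

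By level, 1 read of native RNA stands for 1 molecule, so levels in RPM (reads per 1000000 library reads) were not divided by length. Hadhb stood at 2166 RPM in the cold and 1817 in the ctrl library, Acadl at 1669 and 1273, and Acaa2 at 1153 and 1462. Scp2 was the most abundant peroxisomal gene, at 1263 RPM in the cold and 831 in the ctrl library. At the low end, Abcd2 had 8.23 RPM in the cold and 24.1 in ctrl, and Pecr 26.3 and 9.42. Per kilobase of the most abundant transcript, Etfb ranked first in both libraries, at 1170 RPM in the cold and 1109 in ctrl, on a transcript of 893 bases. The locus Gm45233 shares 68.0% of the 31-base words of that transcript and had 3 reads in the cold and 7 in the ctrl library.

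**Figure D3:**
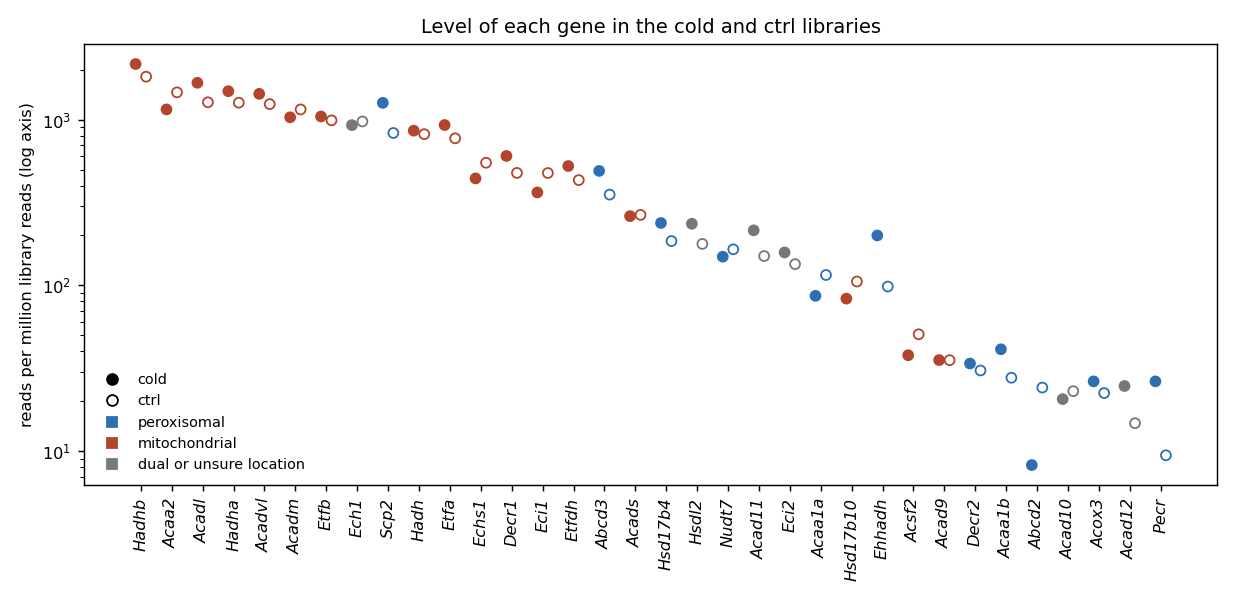
Level of each gene in RPM, on a log axis, in the cold (filled) and ctrl (open) library, ordered by the ctrl level and coloured by location. Levels in the cold library reach from 8.23 for Abcd2 to 2166 for Hadhb.

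Annotated protein-coding transcripts took 97.6% (97.4 to 97.8) of the reads of the 34 genes in the cold library and 97.2% (97.0 to 97.4) in ctrl. Transcripts annotated with a retained intron took 1.41% (1.26 to 1.58) in the cold and 1.75% (1.60 to 1.91) in the ctrl library. In 25 genes both libraries had 100 reads or more, and of these 14 had over 90% of their reads on 1 transcript in both. The share of the most abundant transcript differed, with a Newcombe interval that excluded 0, for 2 of the 25 genes, beside 8.28% of all 1184 genes with 100 reads or more in both libraries. Hadhb-203 took 53.7% of Hadhb reads in the cold and 50.1% in the ctrl library, a difference of 3.66 points (1.06 to 6.25). Abcd3-201 took 68.3% of Abcd3 reads in the cold and 62.4% in the ctrl library, a difference of 5.85 points (0.456 to 11.2). Over coding transcripts alone the Abcd3-201 difference was 5.40 points and its interval, -0.0034 to 10.8, included 0. Acads stood apart by its high share of the retained intron transcript Acads-202, 38.7% (33.3 to 44.3) in the cold and 38.1% (33.6 to 42.7) in ctrl. For Acaa1a the retained intron transcript Acaa1a-209 took 13.3% (7.49 to 21.4) in the cold and 22.4% (16.8 to 28.9) in ctrl, a difference of -9.12 points whose interval, -17.3 to 0.312, includes 0.

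**Figure D4:**
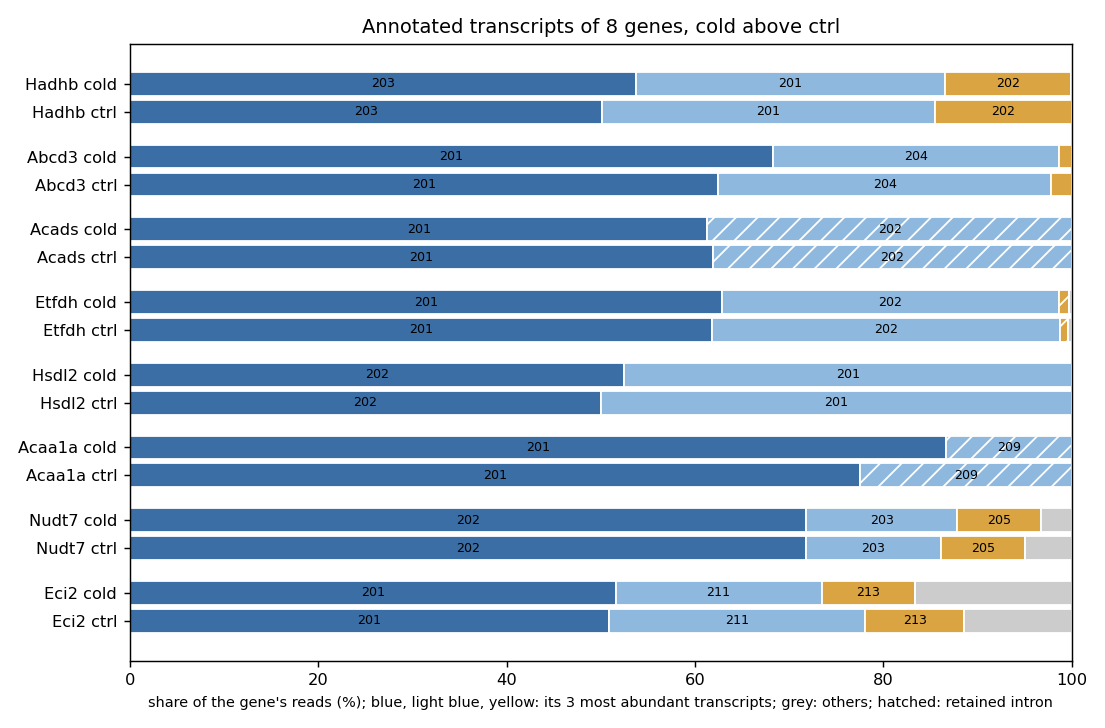
Share of reads on the 3 most abundant annotated transcripts of 8 genes, with the cold library above ctrl, transcript numbers in the bars, grey for other transcripts and hatching for retained introns. Shares are alike in both libraries for Acads, while Hadhb-203 is 3.66 points and Abcd3-201 5.85 points higher in the cold library. Over coding transcripts alone the interval of the Abcd3-201 difference is -0.0034 to 10.8.

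Other genes around the pathway were read from further lists. Of 12 genes for other peroxisomal oxidation and transport, 11 had at least 20 reads, with a median log2 ratio of 0.16. With TMM, 4 of their intervals lay above 1 and 1 below, beside 11.3% on each side over all 7515 genes. Other scalings are not given for this list. Slc25a17, the peroxisomal carrier for coenzyme A and adenine nucleotides, was the gene of this list at least 1.5-fold apart, with 336 reads in the cold and 157 in the ctrl library and a ratio of 2.64 (2.18 to 3.21). Of 16 peroxisome biogenesis genes, 14 had enough reads and the median was -0.02, with Pex6, an import ATPase, at 1.64 (1.32 to 2.06) and Pex11g, a peroxisome division protein, 2.64-fold lower (1.16 to 6.74) on 8 and 26 reads. Of 8 genes for other acyl-CoA dehydrogenases and their electron route, 7 had enough reads and the median was -0.13. Etfbkmt, which methylates the flavoprotein's beta subunit, was at 1.88 (1.05 to 3.43) on 32 and 21 reads. Of 9 genes for propionyl-CoA and ketone body enzymes, 7 had enough reads, with a median of -0.04. Mcee, the methylmalonyl-CoA epimerase, was at 1.61 (1.36 to 1.89), and Oxct1, which activates ketone bodies, at 1.51 (1.15 to 1.97).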

How the data were processed

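The authors deposited raw read counts per Ensembl transcript, 1 file per library, with no row for a transcript at 0. Alignment used minimap2 on the build GRCm38, per the submitters' processing notes. The sources used here name no version, annotation or handling of reads that match several transcripts. Per the labels' protocols, 500 ng of poly(A)+ RNA entered each direct RNA library. Counts were summed to genes by transcript identifier without version in GENCODE M21 (GRCm38). No gene was found for 0.0652% of cold and 0.0571% of ctrl reads, which stayed in the library size as single entries.

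Library sizes were scaled with edgeR 4.0.16 TMM factors (1.06 for cold, 0.940 for ctrl). Ratios have exact Clopper-Pearson intervals from the cold share of both counts; log2 ratios used a prior of 0.5 reads. Ratios between summed groups have exact conditional odds-ratio intervals. Intervals cover counting error only. Members and lists were chosen with earlier results of these data known. All 34 members are named; other genes are named from the lists where at least 1.5-fold apart with an interval excluding 1 and at least 20 reads, except markers and near-identical copies. A result on a further gene is not reported here. The ratio script was tested on simulated data. Alternatives were total counts, total counts without mitochondrially encoded genes, DESeq2 1.42.0 size factors, other filters, priors and transcript sets, and other assignments of members.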

Additional observations from a re-analysis of the deposited data

How the results depend on the processing

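The peroxisomal minus mitochondrial difference in median log2 ratio, 0.29, lay between 0.23 and 0.35 under all alternatives tried. Its span from the members' counting intervals was -0.097 to 0.68 and included 0 under each of them except the filter of 100 reads, where it was 0.12 to 0.58. With total counts the mitochondrial median turned to 0.070, the late-step median to 0.23, the summed mitochondrial ratio to 1.07 and the peroxisomal one to 1.38, and 1 member in place of 3 was at least 1.5-fold lower, against 3 in place of 2 higher, with Scp2 added. With DESeq2 size factors 4 were lower, with Eci1 added, and 2 higher. With coding transcripts alone, the most abundant transcript alone or Acaa1a and Acaa1b merged, 2 were lower. Leaving mitochondrially encoded genes out of the totals gave 0.022, 0.18, 1.04, 1.33 and 1, with 2 higher. Scalings move every ratio by the same factor, and the counts over all 7515 genes moved as well. With TMM 605 of these were at least 1.5-fold higher and 558 lower, with total counts 1001 and 319. Without mitochondrially encoded genes the counts were 857 and 384, and with DESeq2 size factors 562 and 609. For the other alternatives no count over all genes is given. With at least 100 reads 1 member in place of 2 was at least 1.5-fold higher, as fewer genes were counted. The summed peroxisomal ratio was 1.10 with the members of dual or unsure location added, and 1.11 without Scp2, an alternative chosen after seeing the data. Within mitochondria alone the late-step median was -0.30. The share of Hadha in Hadha plus Hadhb was 54.8% in the cold and 56.6% in the ctrl library from the most abundant transcripts alone, which leaves out the other coding transcripts of Hadhb, and 39.5% in ctrl from coding transcripts. No paired analysis was possible because each group has 1 library. Of the 34 single log2 ratios, 16 moved beyond their interval with total counts, 11 without mitochondrially encoded genes and 1 with the most abundant transcript alone, and none changed sign with its interval off 1. Depth limits the members with few reads, such as Pecr, Abcd2, Acad10 and Acad12. Leaving out replicates was not possible for the same reason as pairing.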
